A study of Rattus norvegicus with 10 samples.

Results

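Captured methylated DNA was compared between rats in the 2000 regions of the rat genome whose tag counts varied least. Of the 716492 regions in the deposited matrix, 709429 lay on the 20 autosomes, and 240292 of these held at least 180 tags over 9 rats and were eligible. For each eligible region, tag counts were scaled to a library total of 1000000 tags (CPM), and the variance of log2(CPM + 0.5) over the 9 rats was computed. The variance was divided by the median variance of regions of like abundance (50 equal bins of mean log2 CPM), and the 2000 regions with the lowest ratio were taken. They make up 0.832% of the eligible regions. Because the measured spread chose them, their small spread over these 9 rats is a description and not a finding.

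The rats were adult male Sprague-Dawley animals, and the tissue, labelled dorsal hippocampus, was the part of the left hippocampus with CA3 and dentate gyrus. All rats had anesthesia, a craniectomy over the left parietal lobe and a sealed cap. In 5 rats a fluid-percussion pulse to the exposed dura then caused a traumatic brain injury (TBI), and 5 sham-operated rats had no pulse. The methods of the study count fewer sham rats for this assay than the labels and do not say which one is missing, so that each contrast is given with and without sham rat 5. Tissue was taken 3 months later, and 1 library was made for each rat, without pooling of animals. Lateral fluid percussion is a model of brain injury after which not every rat develops epilepsy.

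DNA methylation in mammals is found mostly on cytosines that are followed by guanine (CpG sites). It is copied to the new strand when a cell divides, and in neurons, which no longer divide, much of it is kept for life. Most CpG sites of the genome are methylated in every cell type, whereas enhancers, many promoters of tissue-specific genes and regions next to CpG islands differ between cell types and between individuals. The capture used here binds fragments that carry several methylated CpG sites with a methyl-binding protein, so that the tags of a region follow the methylation and the density of its CpG sites together. Tags come from all cells of the tissue, so that a change in the mixture of cells and a change of methylation within a cell type cannot be told apart.

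Positions are given on RN4, as deposited. Gene annotation and sequence of that assembly were not used here, so that the regions are described by position, length and tags.

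Libraries held from 13597924 to 21672940 tags. One of them, that of sham rat 5, took no part in the choice of regions and stood apart from the other 9. Over all eligible regions, its median absolute distance from the value expected from the other 9 rats was 0.310 log2 units. Each of these 9 rats, set against the remaining 8, was between 0.149 and 0.215. The 9 rats had all counted toward the tag sum that made regions eligible, and sham rat 5 had not, so that the 2 measures are not fully alike. The steadiest regions held between 0.746% and 0.759% of all tags in each of the 9 rats, with 0.754 ± 0.00534% in sham rats 1 to 4 (SD, n = 4) and 0.755 ± 0.00355% in TBI rats (SD, n = 5). In sham rat 5 they held 0.603%. The choice itself draws the 9 rats together in these regions. Every one of the 2000 regions had tags in every rat, and the median region had from 33.5 tags in sham rat 1 to 53 tags in TBI rat 3.

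In the steadiest regions the 9 rats lay close together. The lowest ratio of all, 0.0223, was found at chr15:40473312-40474342. Its values were 1.91, 2.09, 1.92 and 2.04 CPM in sham rats 1 to 4 and 1.95, 1.90, 1.89, 1.94 and 1.93 CPM in TBI rats 1 to 5, from 26 to 42 tags per rat. Sham rat 5 stood far above all of these with 3.07 CPM, from 57 tags.

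The second lowest ratio was at chr16:10739076-10740023, with 2.87, 3.14, 3.12 and 3.11 CPM in sham rats 1 to 4 and 3.24, 3.02, 3.05, 3.10 and 3.01 CPM in TBI rats 1 to 5. Here sham rat 5 was lower than all other rats, at 2.04 CPM. The third was at chr4:9233924-9235186, a region of 1262 bp with 4.41, 4.32, 4.47 and 4.47 CPM in sham rats 1 to 4 and 4.47, 4.66, 4.66, 4.31 and 4.61 CPM in TBI rats 1 to 5. Its highest value was 1.08 times its lowest, the smallest such ratio among all eligible regions, and sham rat 5 was again low at 2.74 CPM. In each of these regions the values of sham and TBI rats overlapped.

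Among the 8 regions of lowest ratio, sham rat 5 was higher than the other 9 rats in 3 and lower in 5. At chr20:17459427-17460454 it had 2.31 CPM, where the 9 rats lay between 1.05 and 1.25 CPM. At chr1:22836534-22837875 it had 3.28 CPM, where the 9 rats lay between 1.61 and 1.87 CPM. It was lower at chr8:118899734-118900948 with 1.61 CPM, at chr15:58171330-58172360 with 1.45 CPM and at chr10:10983953-10985183 with 2.48 CPM. Regions picked for a narrow range leave most values of any rat outside the choice beyond that range, so that these 8 regions do not by themselves set sham rat 5 apart.

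**Figure D1:**
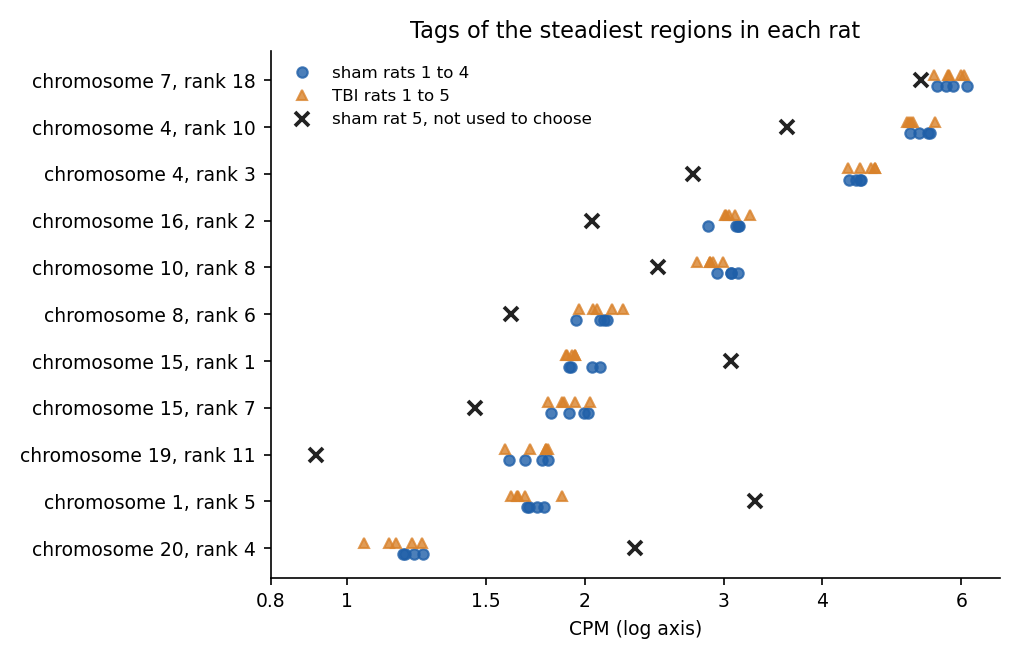
CPM (log axis) of the 11 regions with the lowest variance ratio, overall or among weak, middle or strong regions, in sham rats 1 to 4 (circles), TBI rats 1 to 5 (triangles) and sham rat 5 (crosses), with 1 row per region named by its chromosome and its rank in variance ratio. The 9 rats of the choice lie close together in each row, and sham rat 5, which took no part in the choice, lies outside their range in all 11 rows.

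The regions came from all 50 bins of abundance, but not evenly. The share of eligible regions taken was 0.375% in the weakest bin and 1.58% in the strongest. The highest mean among them was 42.6 CPM, where eligible regions reached 1134 CPM. They were divided by mean log2 CPM into 667 weak, 666 middle and 667 strong regions, with median CPM of 1.42, 2.45 and 5.72. The lowest ratio of the weak regions was that of the chromosome 20 region named above, at a mean of 1.18 CPM, and another of the lowest was at chr19:28798625-28799349, at a mean of 1.72 CPM. Among strong regions, chr4:154191618-154193335 held between 5.12 and 5.55 CPM in the 9 rats, and chr7:60552947-60555605 held between 5.54 and 6.10 CPM. The regions with the highest mean CPM were also the longest. At chr1:262705727-262714578, 8851 bp long, the mean was 42.6 CPM, and at chr14:7014341-7023141 and chr11:34502466-34510690 it was 39.9 and 33.4 CPM. The shortest were 345 bp at chr5:65009710-65010055, 359 bp at chr15:42491809-42492168 and 362 bp at chr16:36076074-36076436.

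At the threshold the choice was a fine one. The ratios of the 3 last regions taken and of the 3 first regions left out all rounded to 0.198. The last taken were at chr2:230524738-230525518, chr8:115405742-115407108 and chr3:150781291-150783243, where the highest of the 9 rats was 1.27, 1.20 and 1.25 times the lowest. The first left out were at chr9:39766811-39767278, chr3:109337344-109337984 and chr2:35132463-35133118, where it was 1.43, 1.32 and 1.32 times the lowest.

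The spread in these regions was below that of tag counting. The median SD of log2(CPM + 0.5) over the 9 rats was 0.095 in the steadiest regions and 0.246 in all eligible regions. The median coefficient of variation of CPM was 7.96% in the steadiest regions and 20.6% in all eligible regions, whereas the median expected from counting error alone was 15.1% in the steadiest regions. A dispersion index, the squared deviations of the tags from their expected number divided by that number and by the degrees of freedom, equals 1 when counting is the only source of error. Its median was 0.309 in the steadiest regions, and 1987 of the 2000 (99.4%) were below 1. In all eligible regions the median was 1.86, and 14.9% were below 1. A spread chosen to be below counting error gives no measure of how closely methylation itself was held in these regions.

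**Figure D2:**
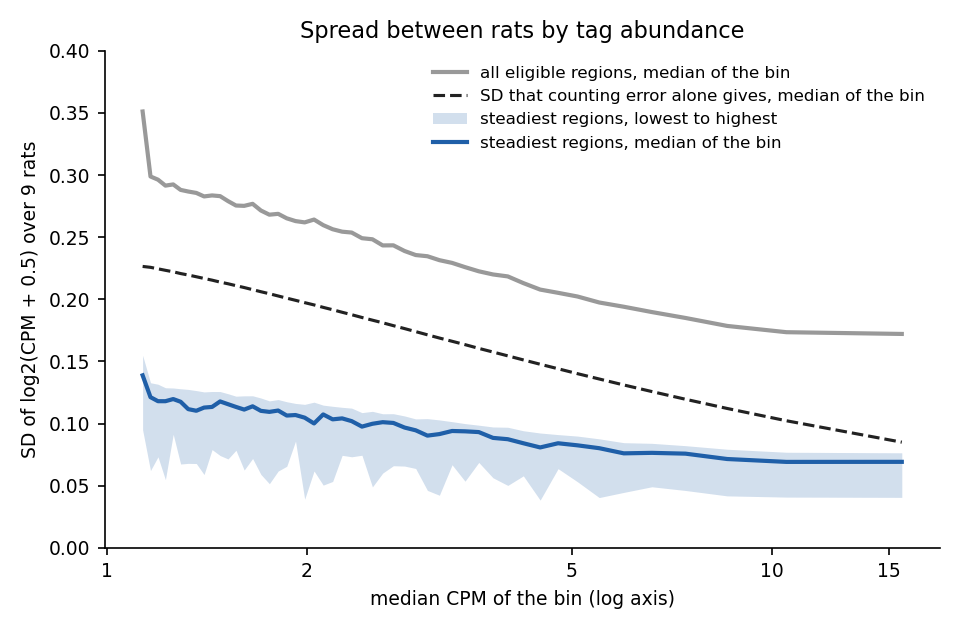
SD of log2(CPM + 0.5) over 9 rats in 50 bins of abundance, plotted at the median CPM of each bin (log axis). The grey line is the median of all eligible regions, the dashed line the median SD that counting error alone gives, and the blue line and band the median and range of the steadiest regions, which lie below the dashed line in every bin.

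Whether a region steady in some rats was steady in others was read in rats that took no part in the choice by variance. The eligible regions were those set by the tag sum over the 9 rats throughout. Each of the 9 rats, but not sham rat 5, therefore had a part in which regions were eligible. For each rat, 2000 regions were chosen on the other rats (9 for sham rat 5, and 8 for each of the rest, since sham rat 5 was left out throughout). The distance of the left-out rat was then taken as its log2(CPM + 0.5) minus the mean of the rats of the choice, centred on the median of all eligible regions in the same bin. In sham rat 5 the median absolute distance was 0.276 in the steadiest regions and 0.310 in all eligible regions, so that the steadiest regions were at 88.9% of the level of all. In the other 9 rats this share lay between 91.3% in TBI rat 5 and 96.4% in sham rat 1, with a mean of 93.9 ± 1.92% (SD, n = 9). It was under 100% in 9 of 9 rats. These values share rats with each other and are given without a test. Pooled over abundance, the steadiest regions were thus slightly closer to their expected value than all eligible regions in every rat left out. The gap was far smaller than in the rats that chose them. The pooled share is not matched for abundance, and in sham rat 5 the distance of eligible regions fell from 0.346 in weak to 0.261 in strong regions.

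The regions at the other end of the scale carried over far more. The 2000 eligible regions with the highest variance ratio had a distance of 150.3% of the level of all eligible regions in sham rat 5, and between 119.2% in TBI rat 4 and 179.6% in sham rat 4 among the other 9 rats. By abundance, the mean share of the steadiest regions over the 9 rats was 95.2 ± 5.62% in weak, 97.5 ± 3.99% in middle and 92.6 ± 5.02% in strong regions (SD, n = 9), which overlap. Within these classes the share was under 100% in 7, 8 and 8 of the 9 rats, and its highest values were 104.0%, 105.6% and 100.8%.

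**Figure D3:**
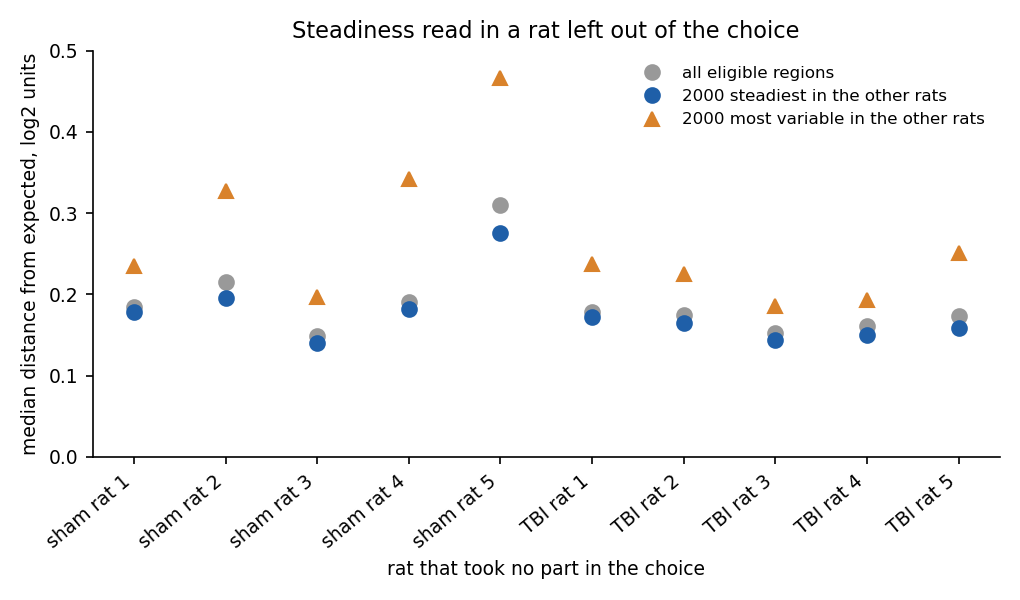
Median absolute distance (log2 units) of each rat from its expected value, where that rat took no part in the choice by variance. Blue points are the 2000 regions steadiest in the other rats, grey points all eligible regions and triangles the 2000 most variable in the other rats. Blue points lie just under grey points in all 10 rats, and triangles lie above both.

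The groups gave the same picture when each was used to choose regions for the other. The 2000 regions steadiest in the 5 TBI rats had a median SD of 0.050 in these rats, compared with 0.221 in all eligible regions. In sham rats 1 to 4 the same regions had a median SD of 0.229, compared with 0.242 in all eligible regions. The 2000 regions steadiest in sham rats 1 to 4 had a median SD of 0.211 in the TBI rats, compared with 0.221 in all eligible regions. Relative to regions of the same abundance these spreads were 95.5% and 96.2% of the median. The lists of the 2 groups, which share no rat, had 23 regions in common. This is 1.15% of each list, and a list of 2000 makes up 0.832% of the eligible regions.

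Membership also depended on single rats and on scaling. When 1 of the 9 rats was left out of the choice, between 1017 (sham rat 2 left out) and 1275 (sham rat 3 or TBI rat 3 left out) of the 2000 regions were chosen again. With trimmed mean (TMM) scaling in place of total tags, 887 were chosen again, and with sham rat 5 included 769 were.

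Length was a feature that the rule did not use. The median length of the steadiest regions was 989 bp (quartiles 726 and 1485 bp), compared with 922 bp (quartiles 695 and 1298 bp) in all eligible regions. Of eligible regions over 3000 bp, 89 of 3539 (2.51%) were among the steadiest, and of those between 2000 and 3000 bp 192 of 13393 (1.43%) were, compared with 0.832% of all eligible regions. Regions over 3000 bp also made up more of the 2000 most variable regions, with 43 of 3539 (1.22%). Most long regions were strong (3484 of the 3539), and strong regions were more often chosen, so that length and abundance go together here. Among strong regions alone, those over 3000 bp made up 13.2% of the steadiest and 5.24% of the eligible. Abundance differed within this class too, with a median of 5.72 CPM in the steadiest and 5.33 CPM in the eligible, so that it does not separate length from abundance. Of regions up to 400 bp, 11 of 2444 (0.450%) were among the steadiest. Among regions over 3000 bp, 1.33% were chosen on the TBI rats alone and 1.81% on the sham rats alone. Among regions up to 400 bp these shares were 0.818% and 0.696%, closer to the share of all eligible regions, so that the low share of short regions was less clear in either group. For regions over 3000 bp, leaving out 1 rat gave from 1.75% (without sham rat 4) to 2.74% (without TBI rat 4). The median variance ratio of all eligible regions over 3000 bp was 0.742, compared with 1.02 in those of 1000 to 1500 bp.

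**Figure D4:**
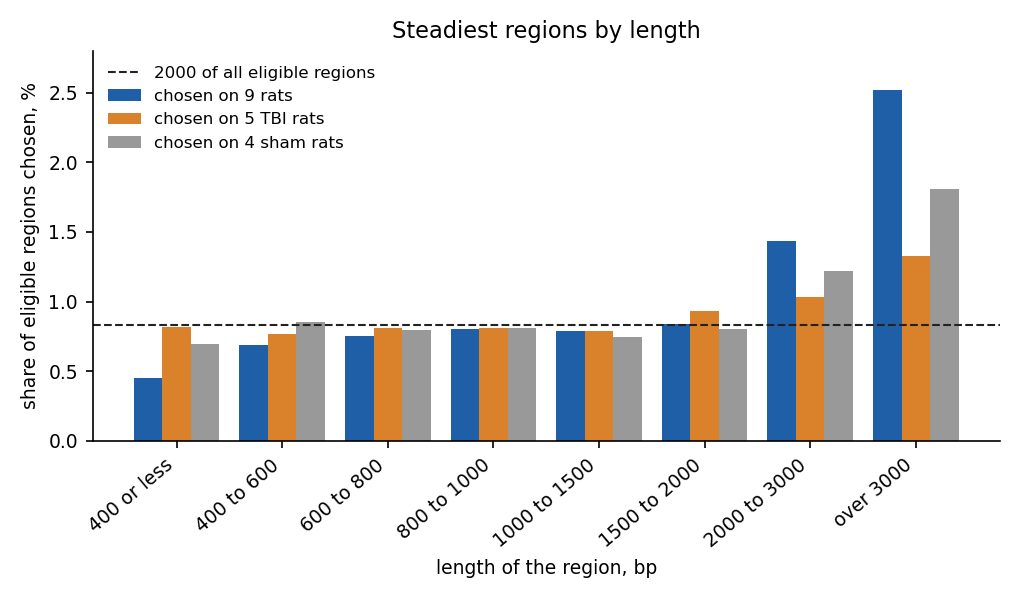
Share of the eligible regions of each length class (bp) that was among the 2000 steadiest, chosen on 9 rats, on the 5 TBI rats or on sham rats 1 to 4. The dashed line is the share of all eligible regions (0.832%), and the bars of all 3 lists stand above it over 2000 bp.

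Among strong regions, the steadiest had a median length of 1788 bp and a median of 63.5 tags per kb and rat. All eligible regions above the same lower limit of abundance had 1464 bp and 70.9 tags per kb. The 2 sets were not matched for abundance, with a median of 5.72 and a highest value of 42.6 CPM in the steadiest, and 5.33 and 1134 CPM in the eligible regions. Among weak regions the medians were 691 bp and 36.3 tags per kb, compared with 709 bp and 35.7 tags per kb. Very dense regions were few among the steadiest. Over 100 tags per kb, 23 of 12876 eligible regions (0.179%) were among them, with 0.482% chosen on the TBI rats alone and 0.287% on the sham rats alone. The same class held 639 of the 2000 most variable regions (4.96% of 12876). Regions under 25 tags per kb were also fewer, with 84 of 17063 (0.492%), while 0.908% of those between 25 and 50 tags per kb and 0.982% of those between 50 and 75 tags per kb were among the steadiest. Regions of very high and very low tag density had wider spread in general, with median variance ratios of 1.47 and 1.14.

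The steadiest regions were spread over all 20 autosomes. Between 0.704% (chromosome 18, 57 of 8096) and 1.04% (chromosome 4, 156 of 14939) of the eligible regions of a chromosome were among them. Leaving out 1 rat gave from 0.937% to 1.14% for chromosome 4. It was 0.850% when regions were chosen on TBI rats alone and 0.951% on sham rats alone, close to the 0.832% of all eligible regions. Over 10 equal parts of the span that the matrix covers on each chromosome, the share lay between 0.740% and 0.910%.

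The median distance from one of the steadiest regions to the next was 247 kb, and it was 287 kb among the 2000 most variable. Within 10 kb the order was the other way: 80 of the steadiest (4.00%) had another within this distance. Of the most variable regions 190 (9.50%) did. The nearest eligible region of a steady region was itself among the steadiest in 18 of 2000 (0.900%), compared with 0.819% for all eligible regions, and its median variance ratio was 0.981, compared with 0.999. Among the most variable regions the nearest neighbour was also highly variable in 122 of 2000 (6.10%), compared with 0.823% for all eligible regions. The crowding of the matrix was alike, with a median of 43 matrix regions within 50 kb of a steady region and 42 around all eligible regions.

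Of 100 kb windows with a steady region, 1727 held 1, 121 held 2, 9 held 3 and 1 held 4. This last window, on chromosome 14 from 8000001 to 8100000, contained 31 eligible regions. Its 4 steady regions differed in strength. At chr14:8046214-8048697 the 9 rats lay between 10.4 and 12.4 CPM, and at chr14:8014330-8015453 between 2.64 and 3.35 CPM. The others, at chr14:8085084-8085675 and chr14:8094933-8096089, had means of 1.45 and 2.39 CPM.

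Regions were then compared between TBI and sham rats by edgeR's quasi-likelihood test on all 358249 regions with at least 117 tags, the median of the tag sum. All 2000 steady regions passed this filter. Since the rule kept regions of low total variance, it also bounded the difference between the groups, and the counts that follow are a description. None of the 2000 had an unadjusted p under 0.01, where 0.266% of all regions tested had. There were 0 higher in TBI rats (background 0.098%) and 0 lower (background 0.168%). At an unadjusted p under 0.05 there was 1, where 2.45% of all regions tested were found. DESeq2's Wald test gave 0 of the 2000 at both thresholds, beside 870 of all 358249 regions tested at p under 0.01 and 7064 at p under 0.05. With all 10 rats no region, steady or not, passed an adjusted p of 0.05 by either tool. In the edgeR fit without sham rat 5, 14 of 358615 regions tested passed it, and 0 of the 2000 steady regions. Without sham rat 5 there were again 0 of 2000 at an unadjusted p under 0.01 (background 0.792%, of which 0.397% higher and 0.396% lower) and 0 at p under 0.05 (background 4.59%).

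The median absolute log2 fold change of TBI over sham was 0.073 in the steady regions and 0.151 in all regions tested, and the values in the steady regions lay between -0.59 and 0.36 with a median standard error of 0.18. Without sham rat 5 the median was 0.055, and the values lay between -0.26 and 0.29. Of the 2000 regions 1046 were higher in TBI rats with all 10 rats, beside 166549 of all 358249 regions tested. Without sham rat 5 there were 846, beside 177655 of 358615. With no filter on low tags 1410 were higher, beside 303846 of 715411. With total tags in place of TMM there were 1146, beside 176227 of 358249, and without sham rat 4 there were 1159, beside 174480 of 359919. The balance of directions thus changed with the filter, the scaling and the rat left out, and the cause was not tested. Among strong steady regions 411 of 667 were higher with all 10 rats and 259 without sham rat 5. The median log2 difference of sham rat 5 from the mean of the other rats was -0.37 there and -0.52 in all strong eligible regions. The share higher among all strong regions tested was not computed, so that these counts are not shown to be particular to the steady regions.

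**Figure D5:**
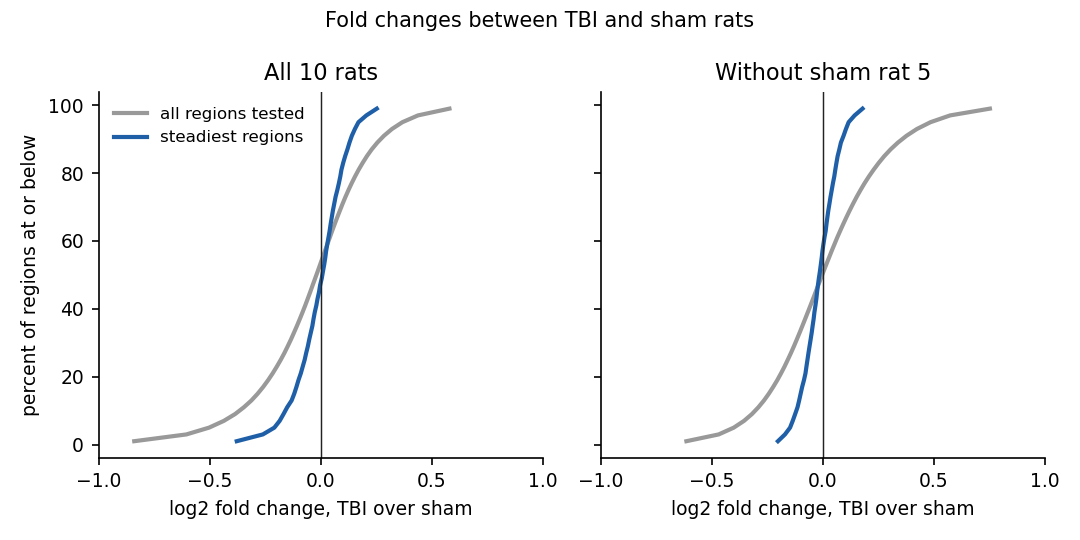
Cumulative percent of regions against log2 fold change of TBI over sham rats, from edgeR, with all 10 rats (left) and without sham rat 5 (right), for the steadiest regions (blue) and all regions tested (grey). Quantiles from 1% to 99% are drawn. The steadiest regions rise more steeply, which the rule imposes.

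The region with the smallest p was at chr14:74395654-74397141. Sham rats 1 to 5 had 1.99, 1.74, 1.78, 1.65 and 2.74 CPM, and TBI rats 1 to 5 had 1.44, 1.51, 1.52, 1.47 and 1.55 CPM. All TBI rats were lower than all sham rats, by a log2 fold change of -0.47 ± 0.22 (SE), and edgeR gave an unadjusted p = 0.0469 and an adjusted p = 1. Without sham rat 5 the log2 fold change was -0.26 ± 0.22 (SE), with an unadjusted p = 0.243 in the edgeR fit of 9 rats.

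The next lower regions were at chr4:55833995-55835489, with a log2 fold change of -0.39 (-0.22 without sham rat 5), and at chr14:3547401-3548190, with -0.59. At the latter sham rat 5 had 3.77 CPM while sham rats 1 to 4 lay between 1.26 and 1.60 CPM and TBI rats between 1.15 and 1.43 CPM, and without it the log2 fold change was -0.08. Among regions higher in TBI rats, the smallest p was at chr6:42745005-42745654. There sham rats 1 to 5 had 2.50, 2.58, 2.50, 2.53 and 1.29 CPM, and TBI rats 1 to 5 had 2.88, 2.75, 3.18, 2.78 and 2.92 CPM. The groups did not overlap there, and the log2 fold change was 0.31 ± 0.18 (SE), and 0.19 ± 0.18 without sham rat 5. The others, at chr15:2369502-2370451 and chr14:5304515-5306191, had log2 fold changes of 0.26 and 0.23, which were 0.18 and 0.14 without sham rat 5. Values did not overlap between groups in 12 of the 2000 regions (0.600%), near the background of 0.502% of all regions tested. Without sham rat 5 there were 33 (1.65%), with a background of 1.53%.

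Sham rat 5 gave a further view of the steady regions, since the rule had not used it to choose them. Regions had entered the matrix where a pair of libraries differed, and the study does not say whether this library was among the pairs. Its departures in the steady regions may therefore not be independent of which regions are in the matrix. Of the 2000, it lay inside the range set by the 9 rats in 439, below it in 1247 and above it in 314. This is 21.95% inside, compared with 47.1% in all eligible regions. Each of the other 9 rats, where left out of the choice, was inside in between 30.15% (sham rat 2) and 44.9% (sham rat 3) of the regions chosen, compared with between 66.0% and 85.2% of all eligible regions. The narrow range of the chosen regions thus put most values outside it in every rat. The median log2 difference of sham rat 5 from the mean of the 9 rats was -0.15 in weak, -0.25 in middle and -0.37 in strong steady regions. In all eligible regions, divided at the same limits of mean log2 CPM, it was -0.07, -0.28 and -0.52.

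The distance of sham rat 5 varied with tag density. In the 500 steady regions with the fewest tags per kb (median 30.9) it was above its expected value in 332 of 500, by a median of 0.22 log2 units. In the 500 with the most (median 71.2 tags per kb) it was above in 263 of 500, with a median of 0.017. All eligible regions, divided in the same way, had medians of 0.35 and -0.21. Spearman's rho between tags per kb and this distance, across regions that share 1 library, was -0.201 in the 2000 steady regions and -0.448 in the 240292 eligible regions. In the other rats, each left out of its choice, it lay between -0.107 and 0.031 in the chosen regions and between -0.251 and 0.241 in the eligible regions. Regions in a library are not independent replicates, and no test is given.

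At single regions the departures of sham rat 5 were large. Among those farthest above the expected value was chr7:22759269-22762381, a region of 3112 bp with 14.6 tags per kb, where it had 110 tags and 5.92 CPM while the 9 rats lay between 2.11 and 2.79 CPM. At chr1:79257947-79262172 it had 14.4 CPM, while the 9 rats lay between 8.60 and 9.77 CPM. Among those farthest below was chr7:78483188-78484007, where it had 2 tags (0.108 CPM), while the 9 rats had from 24 to 40 tags and lay between 1.67 and 1.97 CPM. At chr5:44210365-44211050 and chr14:103952985-103953600 it had 3 tags each, where the 9 rats had from 19 to 39 and from 17 to 36. The cause of these departures was not tested.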

How the data were processed

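The authors aligned short single reads to the RN4 assembly with BWA, ran MACS on each pair of samples to find regions that differed, merged these with BEDTools and removed duplicate reads. The deposited values are raw tag counts per region and rat, with no scaling for depth. Every region entered the matrix because a pair of libraries differed there, which limits how steady any of its regions can be called. Whether positions count from 0 or 1 is not stated, and lengths are end minus start. All 10 sample columns were used, and no other was present (0). Samples were grouped by their treatment label.

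The rule for the 2000 regions, the comparisons and the regions to be named were chosen with earlier results of these data known. Named regions were those of lowest ratio, overall and among weak, middle and strong regions, at the threshold, of highest CPM, of extreme length, of smallest p in each direction, with sham rat 5 farthest away, and in the fullest 100 kb window. The over 3000 bp class, the density classes and their lists by group were chosen after seeing the data.

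TBI and sham rats were compared with edgeR 4.0.16 in R 4.3.3 (TMM, trended dispersion, glmQLFit and glmQLFTest, no covariates, Benjamini-Hochberg adjustment over 358249 regions). DESeq2 1.42.0 was an alternative, and others were DESeq2 size factors, total tags, other filters and leaving out each rat. Fits, the choice of regions and the left-out distance were tested on simulated data first, with Python 3.11.15, numpy 2.4.6 and pandas 2.3.3. Libraries held from 13597924 to 21672940 tags, and counting error applies to every value. P-values from edgeR set the difference between groups against counting error and a dispersion estimated with help from all regions tested. The SE was taken from the same test. Neither measures the spread between rats of a single region alone, which in the steady regions was smaller.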

Additional observations from a re-analysis of the deposited data

Results flagged for a closer look

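In 80 sets of 5 values (the share of tags in the steady regions, the left-out distance and the CPM of 38 named regions, each in sham and in TBI rats), 26 had 1 rat set apart from the others, where chance alone flags about 4. Sham rat 5 was that rat in 23. It took no part in the choice, and the other sham rats were close together because of it, so that these sets do not count as separate evidence on this rat.

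The share of its tags in the 2000 regions was 0.603%. Among the regions of lowest variance ratio it had 3.07 CPM at chr15:40473312-40474342, 2.04 CPM at chr16:10739076-10740023, 2.74 CPM at chr4:9233924-9235186, 2.31 CPM at chr20:17459427-17460454, 3.28 CPM at chr1:22836534-22837875 and 2.48 CPM at chr10:10983953-10985183. In others of lowest ratio among weak and strong regions it had 0.915 CPM at chr19:28798625-28799349 and 3.61 CPM at chr4:154191618-154193335. It had 0.484 CPM at chr2:35132463-35133118, just outside the threshold.

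In the strong, long regions at chr14:7014341-7023141 and chr11:34502466-34510690 it had 26.9 and 23.6 CPM, and 5.87 CPM at chr14:8046214-8048697. In regions named for their p it had 1.29 CPM at chr6:42745005-42745654, 1.83 CPM at chr15:2369502-2370451, 2.69 CPM at chr14:5304515-5306191, 3.01 CPM at chr4:55833995-55835489 and 3.77 CPM at chr14:3547401-3548190. In regions named for its own distance it had 5.92 CPM at chr7:22759269-22762381, 14.4 CPM at chr1:79257947-79262172, 0.108 CPM at chr7:78483188-78484007, and 0.161 CPM both at chr5:44210365-44211050 and at chr14:103952985-103953600.

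The remaining sets concerned TBI rats. TBI rat 1 had 1.87 CPM at chr1:22836534-22837875, above the other TBI rats, and 3.03 CPM at chr15:2369502-2370451, below them. TBI rat 5 had 5.55 CPM at chr4:154191618-154193335, above the others.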

How the results depend on the processing

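No paired analysis was possible because no label ties a sham rat to a TBI rat. Except where a setting itself changes the rats, the number of regions or the scale of the values, the cause of such changes was not tested. Of 239 values under other settings, 145 stayed close to the reported value and 94 moved. Those that moved were in the choice of regions, the median SDs, the left-out distances, the lengths, tag densities and positions, and the fold changes, among others. Many of the 145 were counts of steady regions called between TBI and sham rats, which stayed at 0. The rule had bounded these counts beforehand, so that the 145 do not measure how stable the results are.

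Of the 2000 regions, 887 were chosen again with TMM scaling, 1092 with a minimum tag sum of 360, 1278 with a minimum of 90, 769 with all 10 rats, 285 with the 5 TBI rats alone and 214 with the 4 sham rats alone, and from 1017 to 1275 when 1 rat was left out. The median SD of the chosen regions, 0.095 as reported, was 0.0645 with a pseudocount of 2, 0.0981 with TMM scaling, 0.0909 and 0.0994 with minimum tag sums of 360 and 90, 0.109 with all 10 rats, 0.0504 with TBI rats alone and 0.0372 with sham rats alone, and from 0.0852 to 0.0901 when 1 rat was left out. That of all eligible regions was 0.16, 0.26, 0.218, 0.27, 0.29 and 0.221 in the first 6 of these settings, and from 0.234 to 0.25 when 1 rat was left out.

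The left-out distance of the steadiest regions lay between 91.3% and 96.4% of that of all eligible regions in the 9 other rats. In sham rat 5 it was 0.175 in the steadiest and 0.193 in all eligible regions with a pseudocount of 2, which shrinks low values. The share of regions over 3000 bp that were chosen was 4.54% and 1.66% with minimum tag sums of 360 and 90, 5.64% with all 10 rats, 1.33% with TBI rats alone and 1.81% with sham rats alone, and from 1.75% to 2.74% when 1 rat was left out. A list of 2000 is a different share of all eligible regions in the first 3 of these settings, which had 123774, 377262 and 264844 eligible regions in place of 240292, so that these shares are not on 1 scale.

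Against the 2000 most variable regions in place of all eligible regions, the steadiest were longer by 46.5 bp, had a difference of -20.3 tags per kb, a share of chromosome 4 higher by 0.435 percentage points and a difference of -115.5 bp in the distance to the next region of the matrix. With 1 rat left out, the median length lay between 967 and 1017.5 bp, tags per kb between 45.8 and 47.3, the share of chromosome 4 between 0.937% and 1.14%, the distance to the next steady region between 248 and 271 kb and that to the next region of the matrix between 380.5 and 405.5 bp.

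Between TBI and sham rats, 1 steady region had an unadjusted p under 0.05 in the edgeR fit reported, beside 8764 of all 358249 regions tested. Other settings gave from 0 (as without sham rat 5, beside 16467 of 358615) to 2 (as without sham rat 3, beside 9486 of 359390). Under every scaling, filter, tool and left-out rat, 0 had a p under 0.01. Among all regions tested, those with a p under 0.01 numbered from 613 of 359193 (without TBI rat 3) to 3824 of 715411 (no filter beyond 1 tag). The median absolute log2 fold change of the steady regions ranged from 0.0553 to 0.0929 with 1 rat left out, lowest without sham rat 5. In all regions tested it lay between 0.156 and 0.184, and it was 0.259 with no filter beyond 1 tag and 0.128 with at least 10 tags in every sample, where 1965 of the 2000 remained. At a median of 43.8 tags per rat, counting error limits what can be said of a single region.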
